A study of Mus musculus with 2 samples.

Results

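The proteasome is the large protease that degrades ubiquitin-tagged proteins in eukaryotic cells. Its 20S core is a barrel of α and β rings, whose catalytic β subunits face the inner chamber. The 19S regulatory particle recognises ubiquitin, unfolds the substrate with a ring of ATPases and feeds it into the core. In immune cells, interferon-inducible β subunits can replace the constitutive catalytic ones, and the peptides made are loaded on MHC class I molecules. The genes of this complex lie on many chromosomes, and their accessible regulatory DNA was examined in mouse blood monocytes.

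Members were the protein-coding genes of the mm10 gene models whose symbol begins with Psma to Psmg and a number, with Psmb8 and Psmb9 left out. This rule, which used no measured value, found 48 of 21853 genes. They were 8 α genes, 7 constitutive β genes, Psmb10 and Psmb11, 6 base ATPases, 11 other 19S subunits, 7 assembly chaperones, 5 activators, the inhibitor gene Psmf1, and Psmc3ip. Psmc3ip, which encodes a meiotic recombination factor, matches by symbol and is no proteasome subunit. They lay on every chromosome except 6, 10, 15, 19 and Y, with 10 genes on chromosome 11 and 6 each on chromosomes 2 and 14.

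The series held 1 group of 2 replicates, with no treatment and no control. Each was made from 50000 monocytes of peripheral blood, taken from C57BL/6J mice that were adult and 5 to 6 weeks of age. Sex was not collected. Both replicates carry the same donor identifier, and nothing says that their mice were different, so differences between them may only reflect the assay. ATAC-seq marks DNA that the Tn5 transposase can reach, and the deposited values were peaks with a fold enrichment, the authors' linear ratio over background. How monocytes were purified is not given in the sources used here.

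A promoter was called open where a region of merged peaks lay within 1 kb of a protein-coding transcription start site (TSS) of the gene. The conservative set, made by the authors from both replicates, gave 28438 regions and 10174 open promoters. The replicates' own pseudoreplicated sets, which are looser, gave 11038 and 11203 open promoters. Of 12 monocyte marker genes, 11 had an open promoter in the conservative set and Ccr2, a chemokine receptor gene, did not. In this set 1 of 7 T cell, 2 of 6 B cell, 1 of 4 NK cell and 1 of 5 erythroid markers were open. Of neutrophil and platelet markers, 0 of 6 and 0 of 3 were. In both replicates' pseudoreplicated sets the counts were 11 monocyte, 1 T cell, 2 B cell, 2 NK cell, 0 erythroid, 1 neutrophil and 1 platelet markers. The share of all genes there was 48.6%. The part of other cells in the results was not tested. A fold over a cell population does not tell a larger share of open cells from a more open site in each cell, and it is no measure of transcription.

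The sequences that follow are the DNA before the start site of 8 proteasome genes and the centre of 3 distal regions, printed because the results below turn on them. Promoter sequences came from the RefSeq promoter table (assembly GRCm38.p6, the mm10 build), which matched 40 of 48 members. Psma8, Psmb1, Psmb2, Psmb7, Psmc3, Psmd3, Psmd7 and Psmg2 were not matched. Each promoter begins 250 bases before the RefSeq start and was ended before the first exon of the gene models. Distal sequences are the 100 bases each side of the summit, read from the same assembly. All run 5′ to 3′ on the strand of the gene.

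Psmb6 and Psmd11 had 2 of the strongest promoters among the members. Psmb6 and Psmb5 encode catalytic β subunits, and the capitals in both mark TGACNNNGC, the letters of an antioxidant response element, which the basic leucine zipper factors Nfe2l1 and Nfe2l2 are known to bind. Psmc6, a base ATPase gene, holds these letters, read on the other strand, and CCGGAAG, the letters of an ETS factor site, both in capitals. The capitals in Psmd11 and Psma6 mark CCGGAAG, read on the other strand in Psmd11. Those in Psmb3 mark an interferon-stimulated response element, GAAA, any pair of bases and GAAA again, read on the other strand. Psmd14 is shown as a weak promoter, with CCAAT, the letters of an NF-Y site, in capitals. Psmb10 is shown because its open region lay downstream of this DNA.
Psmb6 promoter, chr11:70525107-70525356, plus strand: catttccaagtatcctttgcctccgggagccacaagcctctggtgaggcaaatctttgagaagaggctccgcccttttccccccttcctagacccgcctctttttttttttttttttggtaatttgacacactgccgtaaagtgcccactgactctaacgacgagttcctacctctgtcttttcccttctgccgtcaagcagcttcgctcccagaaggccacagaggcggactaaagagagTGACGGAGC
Psmb5 promoter, chr14:54618023-54618245, minus strand: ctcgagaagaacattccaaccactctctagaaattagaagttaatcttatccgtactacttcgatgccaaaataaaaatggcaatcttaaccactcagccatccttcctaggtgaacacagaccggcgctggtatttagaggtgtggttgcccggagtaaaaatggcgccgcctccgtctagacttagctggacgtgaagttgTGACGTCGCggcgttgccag
Psmc6 promoter, chr14:45329574-45329787, plus strand: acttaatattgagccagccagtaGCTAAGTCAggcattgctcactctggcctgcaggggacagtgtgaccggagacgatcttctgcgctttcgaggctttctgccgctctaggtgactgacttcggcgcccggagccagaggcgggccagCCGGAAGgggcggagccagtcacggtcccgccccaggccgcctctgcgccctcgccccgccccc
Psmd11 promoter, chr11:80428365-80428614, plus strand: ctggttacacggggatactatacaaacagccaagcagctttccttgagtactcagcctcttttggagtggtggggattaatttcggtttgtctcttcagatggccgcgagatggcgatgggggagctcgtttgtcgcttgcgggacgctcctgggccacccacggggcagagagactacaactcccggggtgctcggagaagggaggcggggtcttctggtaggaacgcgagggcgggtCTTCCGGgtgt
Psma6 promoter, chr12:55398575-55398774, plus strand: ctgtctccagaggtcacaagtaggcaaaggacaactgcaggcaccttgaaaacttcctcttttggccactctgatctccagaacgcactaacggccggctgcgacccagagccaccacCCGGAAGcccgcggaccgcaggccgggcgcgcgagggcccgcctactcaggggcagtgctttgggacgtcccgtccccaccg
Psmb3 promoter, chr11:97703184-97703398, plus strand: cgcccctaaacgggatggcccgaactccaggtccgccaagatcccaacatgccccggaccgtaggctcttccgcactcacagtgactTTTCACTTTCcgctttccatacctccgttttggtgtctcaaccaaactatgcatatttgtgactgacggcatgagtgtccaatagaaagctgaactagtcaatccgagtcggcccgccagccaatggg
Psmd14 promoter, chr2:61711444-61711693, plus strand: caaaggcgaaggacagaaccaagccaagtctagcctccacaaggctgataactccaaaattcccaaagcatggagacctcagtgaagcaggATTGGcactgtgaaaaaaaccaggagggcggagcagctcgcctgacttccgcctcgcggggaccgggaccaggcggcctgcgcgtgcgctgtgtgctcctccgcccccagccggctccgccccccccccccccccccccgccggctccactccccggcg
Psmb10 promoter, chr8:105938445-105938642, minus strand: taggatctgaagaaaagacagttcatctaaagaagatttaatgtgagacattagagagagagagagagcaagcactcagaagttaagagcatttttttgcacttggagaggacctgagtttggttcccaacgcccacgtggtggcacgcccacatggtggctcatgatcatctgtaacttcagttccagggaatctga

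The 3 distal regions with the highest fold are shown with GAGGAAG, the letters of a site for PU.1 (Spi1), a lineage factor of myeloid cells, in capitals. The Psma6 region holds 3 matches, on both strands, and the Psma1 and Psma3 regions hold 1 each, that of Psma1 on the other strand.
Psma6 distal region, chr12:55389779-55389979, plus strand: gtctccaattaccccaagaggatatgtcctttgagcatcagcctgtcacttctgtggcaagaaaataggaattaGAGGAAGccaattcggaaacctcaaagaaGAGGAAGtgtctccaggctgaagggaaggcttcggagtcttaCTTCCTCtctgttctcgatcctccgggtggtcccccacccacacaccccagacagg
Psma1 distal region, chr7:114316521-114316721, minus strand: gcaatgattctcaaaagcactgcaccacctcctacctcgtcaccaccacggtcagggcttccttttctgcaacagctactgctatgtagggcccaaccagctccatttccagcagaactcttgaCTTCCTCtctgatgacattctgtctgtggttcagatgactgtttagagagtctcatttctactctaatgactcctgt
Psma3 distal region, chr12:70999693-70999893, plus strand: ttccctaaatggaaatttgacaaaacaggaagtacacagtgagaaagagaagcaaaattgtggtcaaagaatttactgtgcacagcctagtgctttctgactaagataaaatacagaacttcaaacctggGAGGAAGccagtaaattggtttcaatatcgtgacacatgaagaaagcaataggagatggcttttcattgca

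Nearly all proteasome genes had an open promoter in monocytes. In the conservative set 45 of 48 promoters (93.8%) were open, against 46.6% of all 21853 protein-coding genes. In both replicates' pseudoreplicated sets 44 of 48 (91.7%) were open, against 48.6% of all genes. In both replicates' stricter thresholded sets the count was 41 of 48 (85.4%), against 37.1% of all genes. The 4 members that the stricter sets lost were Psmb10, Psmd14 and Psme1, absent in replicate 1, and Psmg2, absent in replicate 2.

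Promoters rich in CpG are often open whatever the cell type, so members were also set beside genes of like CpG content. Genes were parted into 5 classes by the CpG ratio of the 500 bp on each side of the TSS. In the richest class 11 of 11 members were open, against 77.9% of all its genes. In the next class 16 of 16 were open, against 73.6%. In the middle class 14 of 15 were open, against 58%. In the class below it 4 of 6 were open, Psmb10, Psmd10, Psme1 and Psme2, against 18.0% of all its genes. No member fell in the poorest class. In each class that held any, the members' share was above that of all its genes.

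The 3 members without an open promoter were Psma8, Psmb11 and Psme2b, and none of them had one in any of the 8 deposited sets analysed. Psma8 encodes the α subunit of the testis proteasome, and its nearest region in the conservative set lay 22.7 kb away. Psmb11 encodes the β subunit of thymic epithelial cells (chr14:54621433-54629556). Its nearest region lay 3.04 kb away and was not at its start. Psmb5, the broadly used catalytic gene next to it, has its TSS 3.41 kb from that of Psmb11 and was open with a fold of 9.16. Psme2b (chr11:48945354-48946190) had its nearest region 32.1 kb away. Of these 3 genes, 2 are known for expression in a single tissue other than blood.

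Open proteasome promoters had a higher median fold than open promoters at large. Their median fold in the conservative set was 9.49 (range 4.72 to 14.4), against 8.34 for all 10174 open promoters. The members' median was 9.56 in replicate 1 and 8.60 in replicate 2, against 7.51 and 7.40 for all open promoters. Both replicates thus gave a higher median for the members, and the members' 2 medians differed by more than those of all promoters. Of the 45 open members, 33 exceeded the median of all open promoters, which 50% of all exceed by definition, and 8 (17.8%) were in the top 10%.

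**Figure D1:**
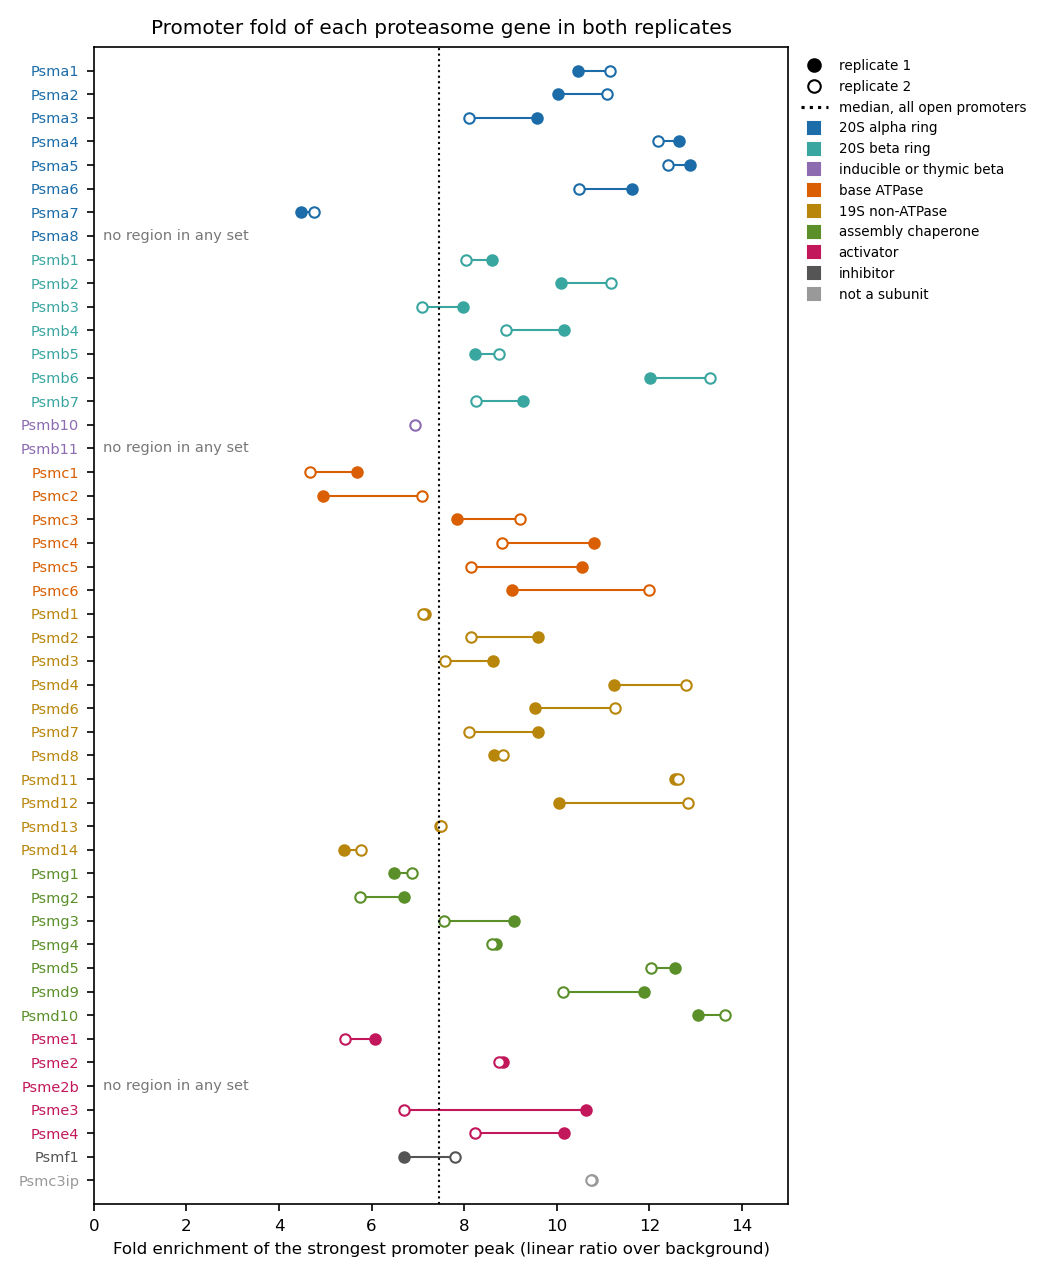
Fold enrichment (linear ratio over background, x axis) of the strongest promoter region of each of the 48 proteasome genes (y axis, coloured by role) in the replicates' own pseudoreplicated sets. Filled points are replicate 1, open points replicate 2, the line joins them, and the dotted line is the mean over the replicates of the median of all open promoters; Psmd10 lies farthest right and Psma7 farthest left, while Psma8, Psmb11 and Psme2b have no point and Psmb10 has one for replicate 2 only.

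**Figure D2:**
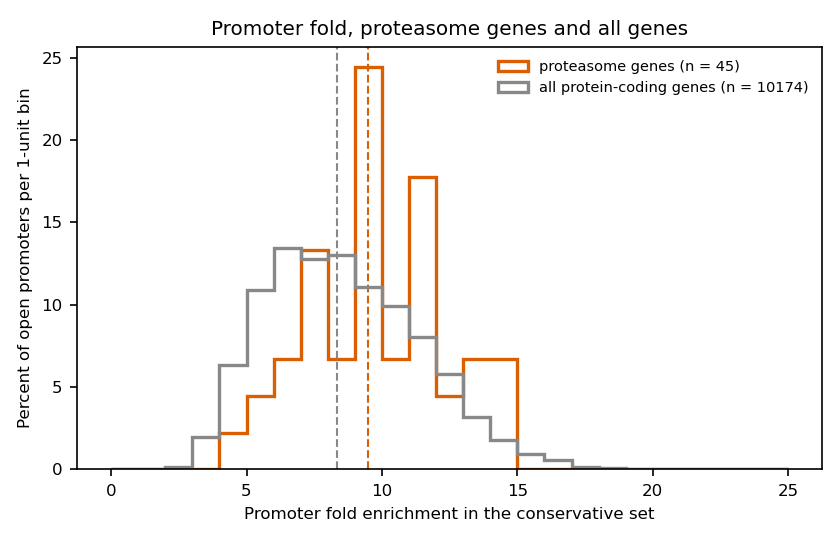
Percent of open promoters (y axis) per bin of 1 unit of fold enrichment in the conservative set (x axis), for 45 proteasome genes and for all 10174 open promoters. Dashed lines are the medians, 9.49 for proteasome genes and 8.34 for all, and no proteasome gene lies above 14.4.

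Among the α ring genes, 7 of 8 were open with a median of 11.8, the highest of the subunit groups. Psma5 had folds of 12.9 in replicate 1 and 12.4 in replicate 2, a mean of 12.6 ± 0.338 (SD, n = 2). Psma4 had folds of 12.6 and 12.2, a mean of 12.4 ± 0.323 (SD, n = 2). These were among the 6 highest members in both the mean and the series value. Psma1, Psma2, Psma3 and Psma6 followed with series folds of 9.47 to 12.0. In replicates 1 and 2, Psma1 had folds of 10.5 and 11.1, Psma2 of 10.0 and 11.1, Psma3 of 9.58 and 8.10, and Psma6 of 11.6 and 10.5.

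Psma7, an α gene of the same ring, was the weakest of all open members in the series and in the mean. Its folds were 4.47 and 4.76, a mean of 4.61 ± 0.201 (SD, n = 2), and its series fold of 4.72 was at percentile 6.14 of all open promoters. Its replicates did not overlap those of any other α gene, but in replicate 2 its 4.76 lay above the 4.66 of Psmc1. The CpG content of Psma7 was in the richest class.

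The constitutive β genes were all open, 7 of 7, with a median of 9.16. Psmb6, which encodes the caspase-like catalytic subunit, had the highest, with folds of 12.0 and 13.3 and a mean of 12.7 ± 0.916 (SD, n = 2). Psmb5, the chymotrypsin-like subunit and the main target of proteasome inhibitors, had folds of 8.24 and 8.76. Psmb7, the trypsin-like subunit, had folds of 9.26 and 8.26. The replicates of Psmb6 lay above those of Psmb5 and Psmb7, whose ranges overlapped. The structural genes Psmb1, Psmb2, Psmb3 and Psmb4 had series folds of 8.65, 11.7, 7.90 and 10.5. In the replicates Psmb1 had 8.60 and 8.03, Psmb2 10.1 and 11.2, Psmb3 7.98 and 7.10, and Psmb4 10.2 and 8.90.

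Psmb10, the interferon-inducible subunit that replaces Psmb7, differed in position. Its open region (chr8:105936890-105937729) lay 715 to 1554 bp downstream of its only protein-coding TSS, with the summit at 1370 bp in an intron. It covered starts of Psmb10 transcripts annotated as processed or retained-intron, and its fold was 7.34. In replicate 2 the region came within 715 bp of the TSS and had a fold of 6.93. In replicate 1 a region of fold 6.98 ended 1.01 kb from the TSS, so there it counted as distal. The TSS itself, whose upstream DNA is among the printed sequences, lay in no open region in either. With a window of 500 bp, or with the summit as the measure, Psmb10 was the member that dropped out, leaving 44.

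The other inducible catalytic genes, Psmb8 and Psmb9, were left out by the rule. Psmb8 had a fold of 6.24 in the series and of 5.91 and 6.11 in the replicates. Psmb9 had 7.76 in the series and 8.80 and 6.15 in the replicates, with 3 distal regions. The series folds of Psmb8, Psmb9 and Psmb10 were all below the median of all open promoters, whereas those of Psmb5, Psmb6 and Psmb7 were all above it. In the replicates, however, Psmb9's 8.80 overlapped the folds of Psmb5 and Psmb7.

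The 6 base ATPase genes were all open, with a median of 9.48 and series folds of 5.64 to 11.4. Psmc6 was highest in the series and in the mean, with folds of 9.04 in replicate 1 and 12.0 in replicate 2. In replicate 1 alone it lay below Psmc4, with folds of 10.8 and 8.81, and Psmc5, with 10.6 and 8.14. Psmc1 was among the weakest members, with folds of 5.67 and 4.66, a mean of 5.17 ± 0.717 (SD, n = 2). Psmc2 had folds of 4.95 and 7.09, a mean of 6.02 ± 1.51 (SD, n = 2), and was the member with the largest excess in replicate 2. Psmc3, Psmc4 and Psmc5 lay between, at 9.27, 10.1 and 9.69 in the series.

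The 11 other 19S genes were all open, with a median of 9.73. Psmd11, a scaffold subunit of the lid, had the highest series fold of all members, 14.4, at percentile 97.6 of open promoters. Its replicates gave 12.6 and 12.6, a mean of 12.6 ± 0.0487 (SD, n = 2). Psmd4, a ubiquitin receptor, had folds of 11.2 and 12.8, and Psmd12, another lid scaffold, 10.0 and 12.8. Psmd14, the deubiquitinase that removes the ubiquitin chain, was weakest in this group with folds of 5.41 and 5.78, a mean of 5.59 ± 0.262 (SD, n = 2). The replicates of Psmd14 lay below those of every other gene in this group. Psmd7, the partner of Psmd14 in the lid, had folds of 9.60 and 8.09, Psmd13 of 7.47 and 7.51, and Psmd1 of 7.16 and 7.12. The remaining genes Psmd2, Psmd3, Psmd6 and Psmd8 had series folds of 8.59 to 11.8.

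Assembly chaperones do not remain in the finished complex. All 7 of their genes were open, with a median of 9.20. Psmd10, a chaperone of the ATPase ring also known as gankyrin, had the highest mean of all members, with folds of 13.0 and 13.6 and a mean of 13.3 ± 0.412 (SD, n = 2). Psmd5, a second ATPase ring chaperone, had folds of 12.6 and 12.0, a mean of 12.3 ± 0.368 (SD, n = 2), and Psmd9 had 11.9 and 10.1. The chaperones of the α ring were weaker. Psmg1 had folds of 6.49 and 6.87, Psmg2 of 6.69 and 5.74 with a mean of 6.22 ± 0.674 (SD, n = 2), Psmg3 of 9.08 and 7.56, and Psmg4 of 8.70 and 8.60. Each replicate of Psmd5, Psmd9 and Psmd10 exceeded each replicate of the 4 Psmg genes.

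Activators open the core without ubiquitin. Of 5 genes, 4 were open with a median of 9.12. Psme1, which encodes the interferon-inducible PA28 α subunit, had folds of 6.07 and 5.43, a mean of 5.75 ± 0.451 (SD, n = 2). Psme2, its partner in the same ring, whose TSS lies 12.5 kb away, had folds of 8.84 and 8.76. Psme3, the nuclear activator PA28 γ, had folds of 10.6 and 6.69, and Psme4, the nuclear activator PA200, of 10.1 and 8.24. Psmf1, which encodes the inhibitor PI31, had folds of 6.69 and 7.80. Psmc3ip had folds of 10.8 and 10.7 and a series value of 11.5. Without Psmc3ip, 44 members were open.

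The summits of most members lay at the start site. The median summit was 25 bp upstream of the nearest TSS of the gene and the median distance was 38 bp, against 45 bp upstream and 67 bp for all open promoters. Summits were within 150 bp of a TSS for 40 of 45 members (88.9%), against 75.4% of all open promoters. They were upstream for 35 of 45 (77.8%), against 76.8%, a share near the background. Regions covered a TSS of the gene in 43 of 45 (95.6%), against 89.1%. The exceptions were Psmb10 and Psmd1. The Psmd1 region (chr1:86064175-86064497) ended 122 bp upstream of its only protein-coding TSS and covered starts of noncoding Psmd1 transcripts. The median width was 664 bp for members and 680 bp for all.

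**Figure D3:**
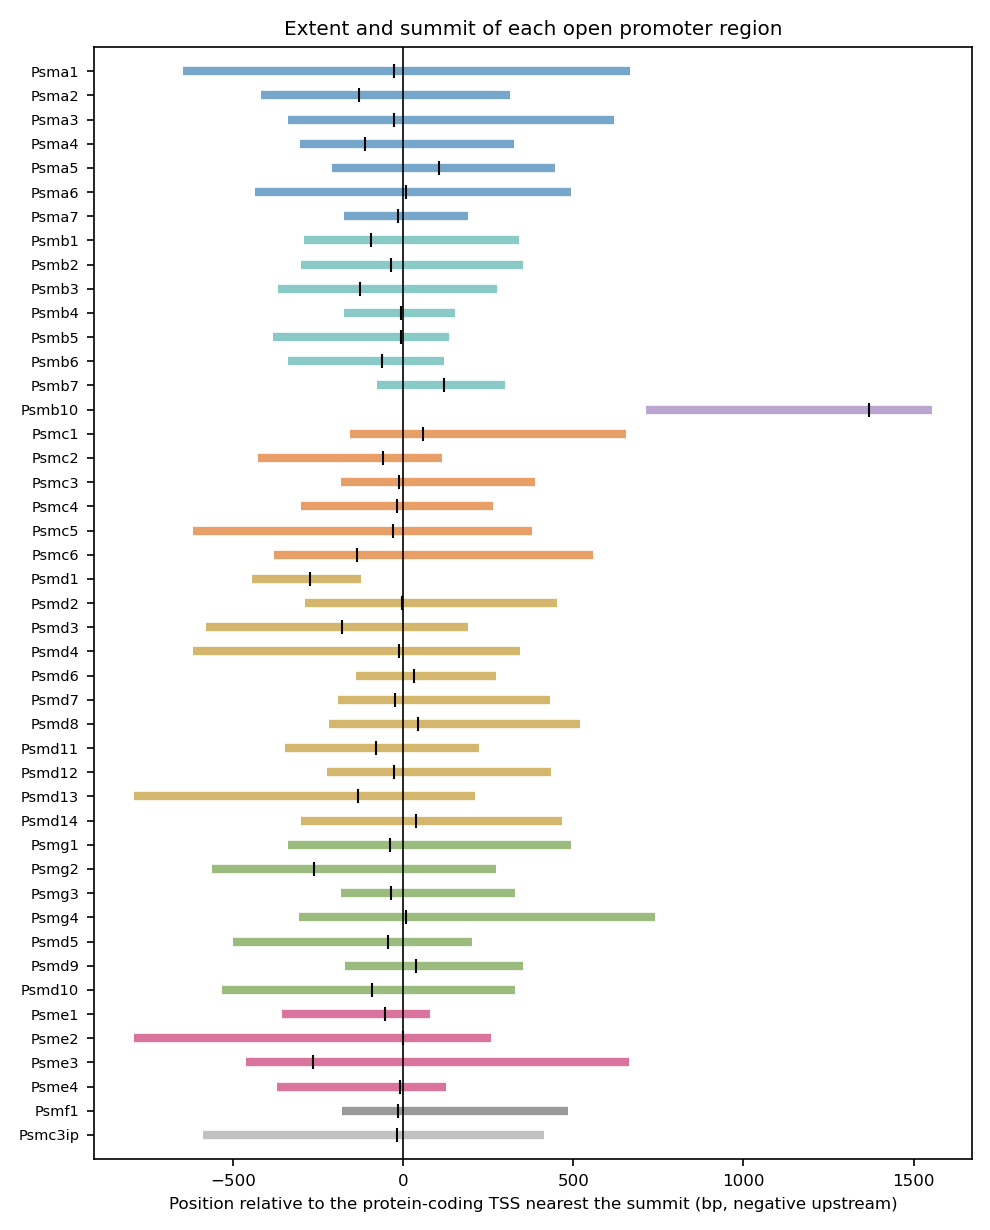
Extent (coloured bar, by role as in the plot of folds) and summit (black tick) of the strongest promoter region of the 45 open proteasome genes, in bp from the protein-coding TSS nearest the summit (0, vertical line; negative is upstream). All bars cross the line except those of Psmd1, which ends 122 bp upstream, and Psmb10, which begins 715 bp downstream.

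Some genes had more than 1 open promoter region. Psmb1 had 1 of fold 8.65 that it shared with Tbp, the gene of the TATA-binding protein, and 1 of fold 7.51 at another of its own starts. Psmb3 had 1 of fold 7.90 at its start and 1 of fold 4.78 with its summit 805 bp upstream. Psmb7 had 1 of fold 9.07 and 1 of fold 1.79. Psma6 has an annotated start at each of 2 places, and only the later one was open, with a fold of 12.0.

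In 10 of 45 members (22.2%) the open region also covered a protein-coding TSS of another gene, against 20.6% of all open promoters, a share near the background. The pairs were Psma2 with Mrpl32, Psma4 with AY074887, Psma7 with Ss18l1, Psmb1 with Tbp, Psmc2 with Dnajc2, Psmc5 with Ftsj3, Psmd10 with Atg4a, Psmd13 with Sirt3, Psme2 with Rnf31 and Psmg2 with Cep76. The fold of such a region cannot be split between its genes. The pairs included both the member with the highest mean fold, Psmd10, and that with the lowest, Psma7.

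Motif letters were counted on both strands within 100 bp of the summit, in 45 member regions and in all 9031 open promoter regions. A match is a description of the letters and shows no binding. CCGGAAG (ETS) was held by 18 members (40.0%), against 19.3% of all. By role they were 4 of 6 base ATPases, 7 of 11 other 19S genes, 1 of 7 open α genes (Psma6), 1 of 7 constitutive β genes (Psmb7), 2 of 7 chaperones (Psmg1 and Psmg3), 1 of 4 open activators (Psme4), and Psmb10 and Psmc3ip. Psma6 held 3 matches within 100 bp. The letters of the interferon-stimulated response element were held by 6 members (13.3%), against 1.99%. These were Psma4, Psmb3, Psmd4, Psmd7, Psme1 and Psmg4, of which Psme1 is a known interferon-inducible gene. Psmb10, also inducible, and Psme2, the partner of Psme1, held none. AAGATGG (YY1) was held by 8 members (17.8%), against 6.54%.

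TGACNNNGC (antioxidant response element) was held by 10 members (22.2%), against 11.8%. These were Psma3, Psmb2, Psmb5, Psmb6, Psmb10, Psmc4, Psmc6, Psmd9, Psme4 and Psmg2. CCAAT (NF-Y) was held by 12 members (26.7%), against 36.9%, and GAGGAAG (PU.1) by 3 members (6.67%), against 12.1%. GGGCGG (SP1) was held by 27 members (60.0%), against 59.3%. The palindrome of NRF1, the nuclear respiratory factor, GCGCA and GCGC parted by any base, was held by 3 members (6.67%), against 8.55%. TGAGTCA (AP-1) was held by 0 members, against 2.58%. The E-box, CACGTG, was held by 2 members, Psma4 and Psmd9, against 9.01% of all. The ZNF143 letters, ACTACAA, were held by 2 members, Psmd10 and Psmd11, against 4.56%. The TATA box, TATAAA, was held by 1 member, Psmb4, against 2.52%. The CREB letters, TGACGTCA, were held by Psmb2 alone, against 3.73%. The heat shock element, GAANNTTC, was held by Psmf1 alone, against 3.27%. An antioxidant response match can overlap an AP-1 match, since both hold TGAC on one strand, but it cannot share letters with a CREB match. No stretch can match both the ETS and the PU.1 letters. The counts of Psmb10 refer to its intronic summit.

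**Figure D4:**
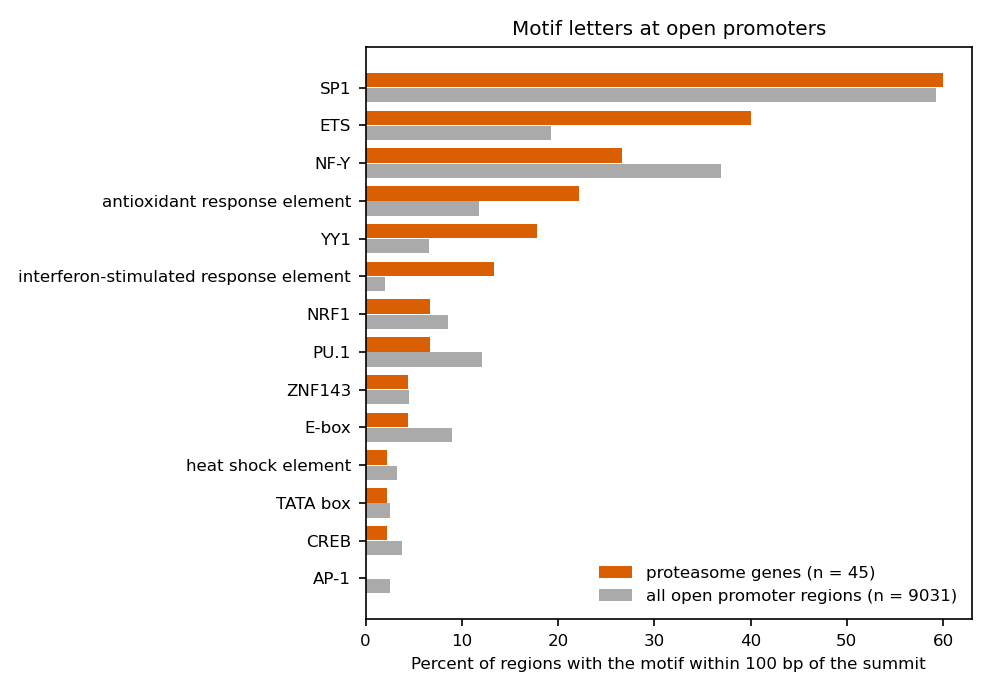
Percent of open promoter regions (x axis) that hold the letters of each of 14 motifs (y axis) within 100 bp of the summit, for 45 proteasome genes (orange) and all 9031 open promoter regions (grey). The widest gaps with proteasome genes higher are those of ETS at 40.0% and 19.3% and of the interferon-stimulated response element at 13.3% and 1.99%.

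The same letters were counted in the RefSeq windows from 250 bases before to 50 after the start, which do not depend on the summit, in 38 open members and 8089 open genes. ETS letters were held by 39.5% of members and 23.3% of all, and interferon-stimulated response letters by 13.2% and 3.92%. YY1 letters were held by 18.4% and 9.10%. Antioxidant response letters were held by 15.8% of members and 17.3% of all, so the higher share of members at the summits was not seen there. NRF1 letters were held by 18.4% and 12.8%, in the other direction from the summit windows. CCAAT was held by 34.2% and 44.7% and GGGCGG by 57.9% and 69.5%.

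In the conservative set, the share of proteasome genes with a distal region was near that of all genes. Regions outside every promoter were assigned to the nearest protein-coding TSS within 100 kb, which does not show that they act on that gene. The members had 31 such regions, 0.646 per gene, against 0.745 per gene over all protein-coding genes. At least 1 was assigned to 14 of 48 members (29.2%), against 33.6% of all genes, a share near the background. This count depended on the peak set. In the looser pseudoreplicated and replicated sets of the series it was 25 members with 58 regions and 26 members with 57, or 52.1% and 54.2% of members, against 49% and 51.5% of all genes. In the replicates' own pseudoreplicated sets, 24 members (50%) had a distal region in replicate 1 and 16 (33.3%) in replicate 2. The shares of all genes were 41.7% and 41.6%, so the members lay above in replicate 1 and below in replicate 2. The 31 regions of the conservative set had a median fold of 6.54 (range 4.54 to 8.81), against 6.03 for all 16273 distal regions. By place, 20 were intergenic, 9 intronic and 2 exonic. Both replicates had an overlapping region for 28 of them, and 1 replicate for the other 3.

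Psma1 and Psmc1 had 6 distal regions each, Psma3, Psma6 and Psmg1 had 3, Psmd4 had 2, and Psma2, Psmb1, Psmb3, Psmc2, Psmd1, Psmd7, Psmg3 and Psmg4 had 1. None of the activator genes, Psmf1, Psmc3ip, Psmb10 or Psmb11 had any in the conservative set. The strongest was in an intron of Psma6 (chr12:55389703-55390192), with a fold of 8.81 in the series, 9.53 in replicate 1 and 6.55 in replicate 2. It lay 5.66 kb downstream of the first annotated start of Psma6 and 8.90 kb upstream of the start that was open. Next came a region 40.5 kb upstream of Psma1 (chr7:114316441-114316835), with a fold of 8.65 and replicate folds of 7.72 and 8.22. A region past the end of Psma3 (chr12:70999206-70999957) had a fold of 8.30 and replicate folds of 9.29 and 6.73. It lay 12.9 kb downstream of the nearest annotated start of Psma3, and farther from the start that was open.

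**Figure D5:**
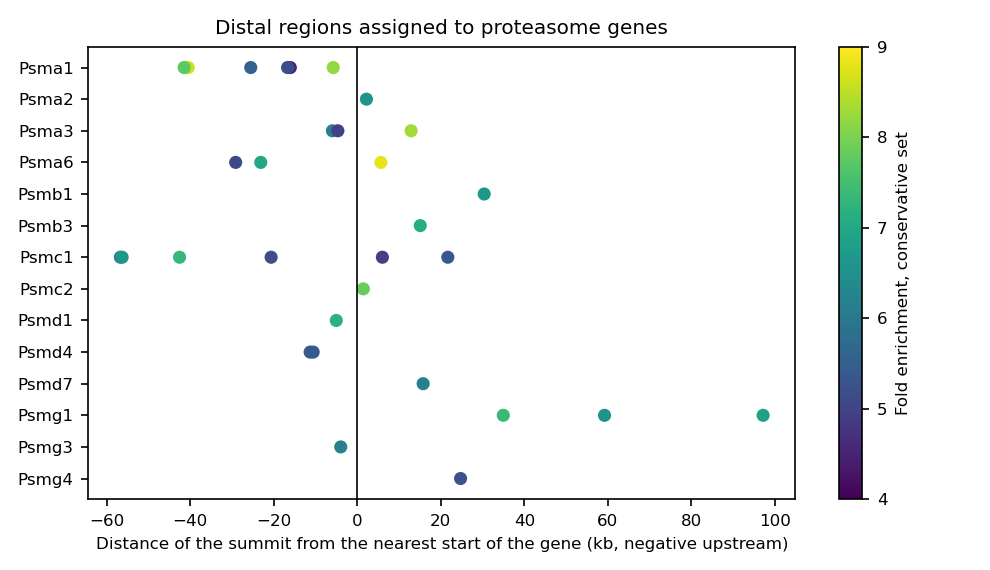
Distance in kb of each of the 31 distal summits from the nearest start of its gene (x axis, negative is upstream) for the 14 proteasome genes that had one (y axis), coloured by fold enrichment in the conservative set. The 6 Psma1 regions all lie upstream, within 41.5 kb, and the 3 Psmg1 regions all lie downstream, out to 97.2 kb.

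The single Psmc2 region (chr5:21786565-21786901), 1.45 kb downstream of its GENCODE start and with a fold of 7.84, lay in a Psmc2 exon and covered a RefSeq start of Psmc2. It was stronger than the 6.73 of the region at the GENCODE start. The 6 Psmc1 regions had folds of 4.92 to 7.34 and included 2 in an intron of Kcnk13, 56.3 and 56.7 kb upstream. Psmc1 had a weak promoter, and Psma1 a strong one at 11.1. Over the 45 open members, which share both libraries, promoter fold and number of distal regions had a Pearson correlation of -0.149 and a Spearman correlation of -0.170. The correlations of fold with CpG ratio were -0.078 and -0.094, and with region width 0.063 and 0.027.

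PU.1 letters, GAGGAAG, were held within 100 bp of the summit by 8 of 31 distal regions (25.8%), against 24.3% of all distal regions, a share near the background. At the members' promoters the same letters were held by 6.67%. CCAAT was held by 8 distal regions (25.8%) against 22%, ETS letters by 2 (6.45%) against 2.88%, and AP-1 letters by 2 (6.45%) against 9.11%.

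The replicates gave similar folds over the members. In the 44 members open in both, the median log2 difference, replicate 2 minus replicate 1, was -0.01 with an SD of 0.226, against -0.01 and 0.233 for the 10627 genes open in both. Replicate 2 was higher in 19 members and replicate 1 in 25. Of the 44, 2 (4.55%) differed by more than 0.5 log2 units, against 4.03% of all genes. They were Psme3, at -0.67, and Psmc2, at 0.52. Over these 44 members, Pearson's r between the replicates' log2 folds was 0.833 and Spearman's rho was 0.791, against 0.898 and 0.907 over all genes. Differences between members of less than about the SD of a member's own replicates are not separable with 2 replicates. Larger differences are not thereby separable, because an SD of 2 replicates is itself imprecise. It was 0.00725 for Psmc3ip and 2.78 for Psme3.

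The wider pathway was also mostly open. Of 28 other genes of proteasome assembly, control and ubiquitin delivery that the gene models list, 26 (92.9%) were open, against 46.6% of all genes. Of the 28, 17 were in the class richest in CpG, where 77.9% of all genes were open. The median fold of the 26 was 8.59, against 8.34 for all open promoters and 8.21 for those of that class. Paaf1, also on the list, was not among the protein-coding symbols. Vcp, the segregase that delivers substrates, had a fold of 13.1, Uba6, a ubiquitin-activating enzyme gene, 13.4, and Sem1, a small 19S subunit gene outside the naming rule, 13.0. Nfe2l1, the factor known to raise proteasome genes when activity falls, had a fold of 11.2, and its relative Nfe2l2 had 7.15 with 5 distal regions. Pomp, the core maturation factor, had 7.12, and Adrm1, a ubiquitin receptor, had 5.48.

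The 2 genes not open in the conservative set were Ddi2, the protease that activates Nfe2l1, and Ecpas, a proteasome adaptor. Both had a promoter region in the replicates' looser sets. Ddi2 had folds of 3.29 and 5.22, and Ecpas of 3.70 and 3.54.

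Other large complexes gave values close to these. Of 76 cytosolic ribosomal protein genes 73 were open, with a median fold of 9.28. All 36 complex I genes were open, with a median of 10.2, as were 7 of 7 measured chaperonin genes, with a median of 9.46. The eighth listed, Cct6a, was not among the protein-coding symbols. In the conservative set the members' median of 9.49 lay between the lowest and the highest of these 3 medians. In replicate 1 the members' 9.56 lay between 8.78 for ribosomal protein and 9.92 for complex I genes. In replicate 2 their 8.60 lay below all 3, at 8.71 for ribosomal protein, 9.42 for complex I and 9.70 for chaperonin genes.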

How the data were processed

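ATAC-seq peak lists of 2 replicates of mouse blood monocytes, 1 group, on assembly mm10 per the labels, were analysed. Some of the lists the authors deposited come from 1 replicate and others from both, per the deposited README, which names a further input without saying what it is. For the aligner, the peak caller and any Tn5 shift, no name or version is given in the sources used here. The fold enrichment of a peak over background (a linear ratio) and its −log10 p are the authors' deposited values and were not rescaled. The lists hold no read counts, so library depth is unknown and no interval or floor is given. The number of peaks in a list can move with depth.

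Overlapping peaks were merged, each region taking its highest fold and the summit of its peak with the smallest p. GENCODE M21 gave the gene models and GRCm38.p6, the mm10 build, the sequence. A TSS is the start of a protein-coding transcript. Promoter regions lay within 1 kb of a TSS, and other regions went to the nearest TSS within 100 kb. Replicate folds came from each replicate's own pseudoreplicated set, and series folds from the conservative IDR-thresholded set. The assignment was tested on simulated regions.

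The members, gene lists, motif strings and the rule for named genes were chosen with earlier results of these data known, so lists are described by counts and medians beside those of all genes, with no test. Both replicates' promoter folds are given for the 6 highest and the 6 lowest members by mean fold, members with distal regions or with shared promoters, those whose replicates differed most, and a fixed set of catalytic, receptor and activator genes, as far as their promoters were open, and every member without an open promoter is named. Alternatives were other peak sets, 1 replicate alone, other windows, distances and start sites, and leaving out Psmc3ip. Python 3.11.15, numpy 2.4.6, pandas 2.3.3, pysam 0.24.0 and matplotlib 3.10.9 were used.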

Additional observations from a re-analysis of the deposited data

How the results depend on the processing

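The count of open proteasome promoters stayed between 41 and 45 over all 12 alternatives, the lowest with the 5′ end of the gene model as the only start. It was 44 and 45 with 1 replicate left out, where the other replicate's own pseudoreplicated set, which is looser than the conservative one, was used. The median promoter fold stayed between 8.60 and 9.59 over 13 alternatives. It was 8.60 without replicate 1 and 9.56 without replicate 2, and 8.68 in replicate 2's own thresholded set. These lower values moved by more than the replicate SD of 0.673. The count of distal regions depended most on the peak set. It was 31 in the conservative set, 58 in the pseudoreplicated and 57 in the replicated set of the series, where 25 and 26 members had 1 or more, against 14. With 1 replicate left out it was 39 and 47 regions and 16 and 24 members, a change of both the replicates and the looseness of the set. The replicates' own thresholded sets, an alternative chosen after seeing the data, gave 17 and 16 regions for replicates 1 and 2 and 10 members in each. The pseudoreplicated and replicated sets held 52671 and 55857 regions in all, the replicates' thresholded sets 17604 and 18057, and the conservative set 28438. A promoter window of 2 kb, distance limits of 50 and 200 kb, and leaving out Psmc3ip kept the count of distal regions at 27 to 31. No paired analysis was possible because the series holds 1 group. With 2 replicates and unknown depth, folds of single members are imprecise, and a promoter without a region may be open below the limit of detection.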
